A study of Homo sapiens with 15 samples.

Results

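The genes described here are 42 genes of DNA replication, the program of S phase. They include subunits of the origin recognition complex (ORC1 and ORC6 only), of the replicative helicase, of the clamp loader, and of the polymerases and primase. The clamp, enzymes that supply deoxynucleotides, and a few histone chaperones and G1/S regulators are also among them. Their probe sets were taken by gene symbol; the list itself was drawn up with earlier results of these data known. All probe sets annotated to these symbols were taken from 22283 probe sets on the Affymetrix human array hgu133a. Of the 42 genes, 41 had a probe set that names that gene alone (60 probe sets in all, with UHRF1 the exception), and 38 were bright enough to test, with a mean log2 value above 6.33, the median of all probe sets. The array gave 11963 genes a probe set of their own, of which 6884 were tested.

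RNA came from A549, a human lung adenocarcinoma line that the labels describe as bronchial, and was hybridised to 15 arrays in 5 groups of 3 with the replicate letters a, b and c. The groups were untreated cells at 0 h, untreated cells at 24 h, and cells given interleukin-13 (IL-13), a cytokine of allergic airway inflammation, for 4 h, 12 h or 24 h. Only the 24 h IL-13 group had an untreated group of its own time. The 4 h and 12 h values are therefore set against 0 h, where cytokine and time in culture cannot be told apart. The same holds for IL-13 24 h against 0 h and for comparisons between times of IL-13. The dose of IL-13 is not given in the labels, nor is it said that the letters stand for separate cultures. The p-values below therefore rest on array-to-array spread, which may be technical.

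Replication is prepared in G1, when the origin recognition complex, CDC6 and CDT1 load the MCM helicase onto origins. At S phase entry MCM10, CDC45 and the GINS complex turn the loaded helicase into an active one, and the polymerases, the PCNA clamp and the single-strand binding protein RPA follow the fork. Most of these genes are transcribed in late G1 and S under the E2F factors, so in a population of dividing cells their transcripts are widely read as a measure of how many cells replicate. In bulk RNA, fewer cells in S phase and less of the transcript in each such cell cannot be told apart.

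The promoters show what several of these genes share beyond their function. RefSeq promoter sequences (GRCh38.p14) were found for 37 of the 42 genes, and the 250 bases before the start listed first for each gene were searched on both strands for the letters of E2F cores (TTGGCGC and its variants TTCGCGC and also TTCCCGC) and of the CCAAT box that binds NF-Y. An E2F core stood in 20 of the 37 promoters (54.1%), against 9.5% of 27305 promoters and 16.0% of the 5744 promoters of tested genes. The CCAAT box, CCAAT, also stood in 20 of the 37 (54.1%), against 33.0% of all promoters and 36.3% of those of tested genes. The GC box, GGGCGG, was in 70.3% of the replication promoters and in 68.0% of those of tested genes, and the cell cycle homology region, TTTGAA, was in 1 of the 37, against 8.2%.

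Short windows around such matches are printed for 6 of the 7 genes that passed the test in any comparison, each 5′ to 3′ on the strand of the gene, with the E2F core in capitals for the first 3 and the CCAAT box in capitals for the other 3.
MCM7, chr7:100101398-100101416, minus strand: gggggcgacgtTTCGCGCc
POLA2, chr11:65261899-65261927, plus strand: tggctcccggtTTCGCGCatgcgtgcact
TYMS, chr18:657603-657631, plus strand: gcgggacggccGCGGGAAaaggcgcgcgg
MCM10, chr10:13161434-13161463, plus strand: gggcgtCCAATgacgtaaaCCAATccgatt
RRM2, chr2:10122667-10122683, plus strand: ccaaagCCAATgggaag
GINS1, chr20:25407654-25407670, plus strand: gttcctATTGGctagct
In TYMS and GINS1 the match lies on the opposite strand, so the capitals are its reverse complement. The windows lie before the listed start used for each gene. That of RRM2 is still inside the annotated span of RRM2, which has a start further upstream. Those of MCM7, TYMS and GINS1 overlap the annotated spans of AP4M1, the antisense gene TYMSOS and LOC105372581. RRM2 had 3 CCAAT boxes in the 250 bases searched. Those of the remaining gene, MCM2, held neither an E2F core nor a CCAAT box. The 50 bases given after each start were not searched. Among the 7 genes, an E2F core was found in 3 and a CCAAT box in 4. Matches can share letters, as TTGGCGC and the reverse of TTCGCGC did in ORC1 and MCM6. A CCAAT box likewise shared letters with an E2F core in ORC1, CHAF1A and PRIM1, so the counts of the motifs are not fully separate. A match of letters is a description and not a bound site.

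Array medians ran from 56.7 to 72.4 signal units. The untreated 24 h arrays, at 69.7, 66.3 and 72.4, had higher medians than all 12 other arrays, with a group mean of 69.5 ± 3.1 (SD, n = 3) against 59.3 ± 4.4 in the IL-13 24 h group. The 3′/5′ signal ratio of GAPDH lay between 0.844 and 0.918. The same ratio of beta-actin, a sign of RNA length, was 1.17 ± 0.066 (SD, n = 3) in the untreated 24 h group and 1.18 ± 0.081 in the IL-13 24 h group, against 1.001 ± 0.065 at 0 h, 1.03 ± 0.078 at 4 h and 1.08 ± 0.049 at 12 h. Among epithelial and A549 markers, 7 of 8 were above the brightness limit of the test, EPCAM being the exception. Of 16 markers of leukocytes, fibroblasts and endothelium with a probe set, 4 were above it. The summed deposited signal of the 7 fibroblast markers was 217 to 286 in the IL-13 24 h arrays and 355 to 431 in the other 12 arrays. COL1A1 and THY1 were the 2 of the 7 above the limit, and the dimmest, PDGFRA, reached down to 1.66 on 1 array. The part of the beta-actin and marker differences in the results for the 24 h groups was not tested; for the array medians, values with arrays scaled to equal medians are given beside the results below.

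As a set, the replication genes stood highest after 4 h of IL-13 and lowest after 24 h, except that with arrays scaled to equal medians the untreated 24 h group was the lowest. The mean of log2(signal + 20) over the 41 genes was 8.12 ± 0.076 (SD, n = 3 arrays) at 0 h, 8.25 ± 0.065 after 4 h of IL-13, 8.15 ± 0.046 after 12 h and 7.85 ± 0.083 after 24 h. The 3 IL-13 24 h arrays, at 7.78, 7.83 and 7.94, lay below every array of the 0 h, 4 h and 12 h groups. In the untreated cells at 24 h it was 8.01 ± 0.19, with arrays a, b and c at 8.03, 8.19 and 7.81. Array c of that group lay inside the range of the IL-13 24 h arrays, so the groups of the same time overlapped. It also had the highest median signal (72.4) and the highest beta-actin ratio (1.24) of all 15 arrays; the part of the latter in its low mean was not tested.

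The difference in this mean between IL-13 and untreated cells at 24 h was -0.16. It was -0.26 without array c of the untreated 24 h group, -0.07 without array b, and 0.02 when arrays were scaled to equal medians instead of quantile-normalized. That scaling moved the median difference of all tested genes in this comparison from 0.0016 to 0.17, and the median of the 38 tested replication genes lay 0.14 below that of all genes with quantile normalization and 0.12 below it with equal medians.

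**Figure D1:**
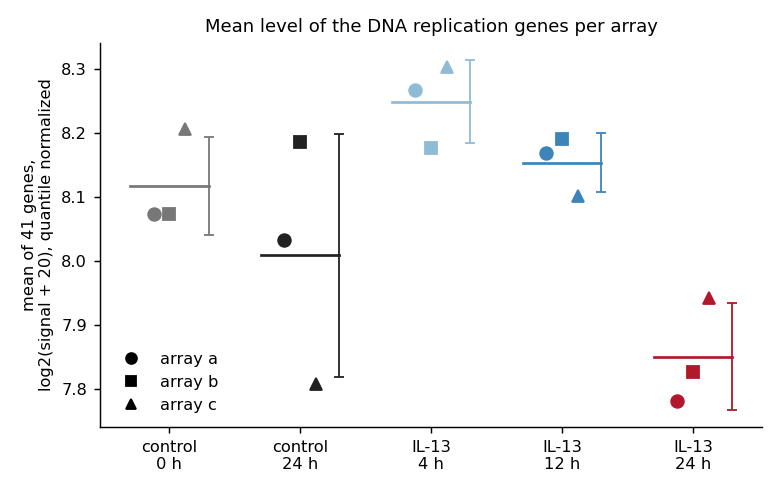
Mean of log2(signal + 20) over 41 replication genes on each of the 15 arrays (points), by group along the horizontal axis, with the group mean and SD (n = 3). The IL-13 24 h arrays sit between 7.78 and 7.94, under all arrays of the 0 h, 4 h and 12 h groups, and overlap the untreated 24 h group through its array c at 7.81.

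Gene by gene, 25 of the 38 tested genes had their highest group mean at 4 h of IL-13, where 17.9% of all tested genes did. At the other end, 26 of the 38 had their lowest mean at 24 h of IL-13, against 23.8% of all tested genes. With arrays scaled to equal medians the first count was 23 (16.6% of all), and the second was 14 (14.1%), while 22 of the 38 were lowest in the untreated 24 h group. Over the other scalings, pseudocounts and averaging over probe sets, the counts were 21 to 25 and 26 to 28.

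**Figure D2:**
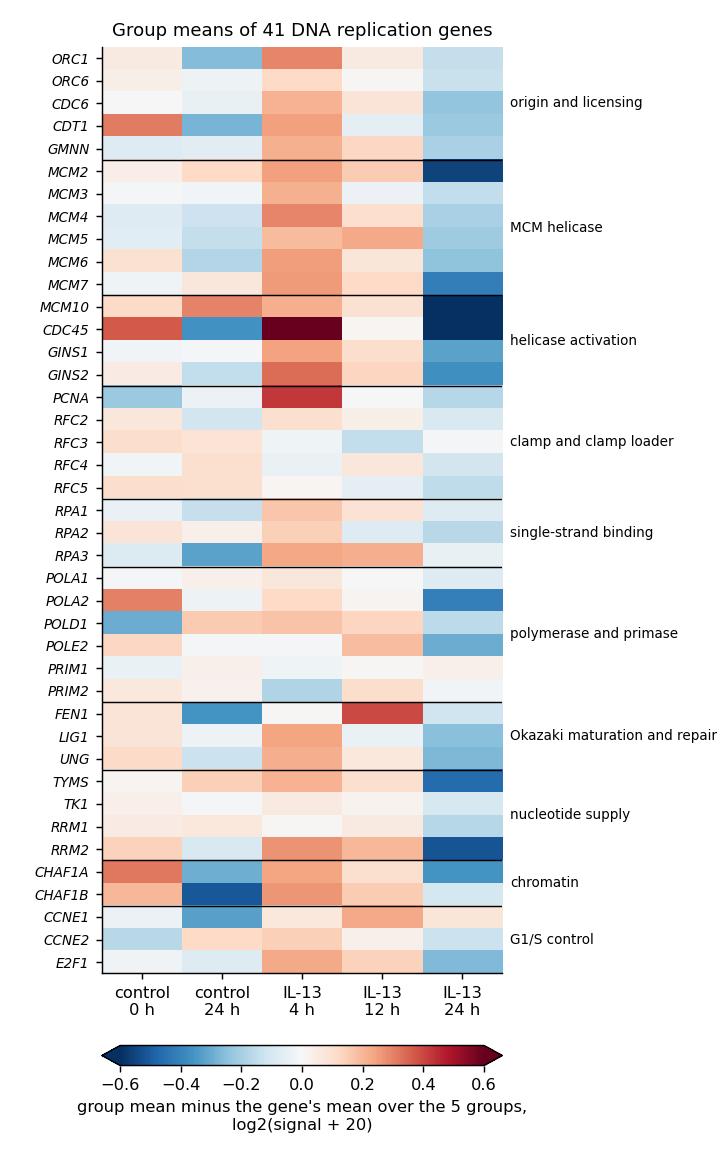
Group means of 41 replication genes, each as log2(signal + 20) minus the gene's mean over the 5 groups, with genes ordered by role from top to bottom. The 4 h IL-13 column holds the highest mean of 25 of the 38 tested genes and the 24 h IL-13 column the lowest of 26; the scale ends at 0.6 in either direction.

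The question of the matched comparison is what 24 h of IL-13 did to these genes beside untreated cells of the same age. Of 38 genes, 5 were lower and none was higher at an adjusted p under 0.05 (limma, Benjamini-Hochberg over all 6884 genes). They were MCM2, MCM7, MCM10, TYMS and RRM2, or 13.2% of the tested replication genes against 3.07% of all tested genes called lower and 3.94% called higher. The 38 genes had a median log2 difference of -0.13, against 0.0016 for all genes, and 30 of them lay below 0. The IL-13 and untreated arrays did not overlap for 9 genes that were lower and for 1 that was higher (CCNE1), where 12.1% and 14.2% of all genes separated in these directions. With equal medians 15 of the 38 lay below 0, and the calls were 1 lower (MCM10) and 2 higher (CCNE1 and RPA3). Of all tested genes, that scaling called 1180 higher and 56 lower.

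MCM2 and MCM7 are subunits of the hexameric MCM helicase, which unwinds DNA at the fork. MCM2 gave signals of 203, 263 and 269 on the IL-13 24 h arrays a, b and c and of 392, 447 and 348 on the untreated 24 h arrays. All 3 treated arrays were below all 3 untreated ones. On the log2(signal + 20) scale, on which all differences here are given, the difference was -0.68 ± 0.14 (SE; adjusted p = 0.00707, limma), with mean signals 1.6-fold apart. MCM7 had signals of 332, 404 and 367 with IL-13 and 484, 586 and 438 without. Its groups did not overlap either, and the difference was -0.49 ± 0.13 (adjusted p = 0.0329, limma). A second MCM7 probe set gave 323, 278 and 329.7 against 432, 548.9 and 371, a difference of -0.54 when every probe set was tested (adjusted p = 0.0309). The other 4 subunits, MCM3, MCM4, MCM5 and MCM6, differed by -0.13 to -0.07 with adjusted p-values of 0.582 to 0.846, and 4 of the 6 subunits were above 0 with equal medians. The sign for MCM4 is uncertain, since its 3 other probe sets differed by -0.0021 to 0.12.

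MCM10 binds the loaded helicase and is needed for its activation. Its signals were 59.9, 129 and 141 on the IL-13 24 h arrays, with array a the lowest, and 244, 259 and 221 on the untreated ones, with no overlap. At -1.02 ± 0.18 it had the largest difference of the 38 genes (adjusted p = 0.00326, limma), and it passed the threshold under all 17 alternatives. GINS1 and GINS2, of the GINS complex that joins the active helicase, did not pass. GINS1 had signals of 304, 283 and 293 against 335, 401 and 351, groups that did not overlap, and differed by -0.31 (adjusted p = 0.081, limma). CDC45, the third partner of the active helicase, was too dim to test, with 49.6, 6.0 and 12 against 32.5, 51.5 and 23.3.

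TYMS and RRM2 supply deoxynucleotides. TYMS encodes thymidylate synthase, which makes dTMP. Its signals were 1102, 1330.2 and 1232 with IL-13 and 1575, 1702 and 1685 without, groups that did not overlap, and the difference was -0.60 ± 0.09 (adjusted p = 0.00102, limma). The call was lost when its dim second probe set (signals of 3.5 to 56.6 over the 15 arrays) was averaged in (adjusted p = 0.283) and with equal medians. RRM2 is the S phase subunit of ribonucleotide reductase, the enzyme that makes deoxynucleotides from ribonucleotides. It had signals of 595, 572 and 602 with IL-13 and 704, 943 and 639 without, with the 3 treated arrays the lowest, and differed by -0.43 ± 0.12 (adjusted p = 0.0344, limma). Its second probe set gave 368, 316 and 373 against 534, 654 and 427, a difference of -0.62 (adjusted p = 0.0084). RRM1, the large subunit of the same enzyme, differed by -0.23 (adjusted p = 0.222, limma), and TK1, the salvage enzyme thymidine kinase, by -0.08 (adjusted p = 0.737).

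The 5 calls did not hold equally. MCM10 passed under 17 of 17 alternatives, MCM2 under 16 (all but equal medians, adjusted p = 0.0531, limma), TYMS under 15, MCM7 under 8 and RRM2 under 6. The alternatives are other scalings, filters and models, and each array of the compared groups left out in turn. MCM7 was lost under every other scaling, with no brightness filter and with only the compared groups. It was also lost without array a or b of the untreated group or array a or c of the IL-13 group. Its adjusted p ranged from 0.016 to 0.368 (limma). RRM2 was lost under every other scaling, with no brightness filter, with the replicate letter as a block and with only the compared groups. Leaving out array a or b of the untreated group or any 1 of the IL-13 arrays lost it too. The adjusted p of RRM2 ranged from 0.0127 to 0.628 (limma).

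**Figure D3:**
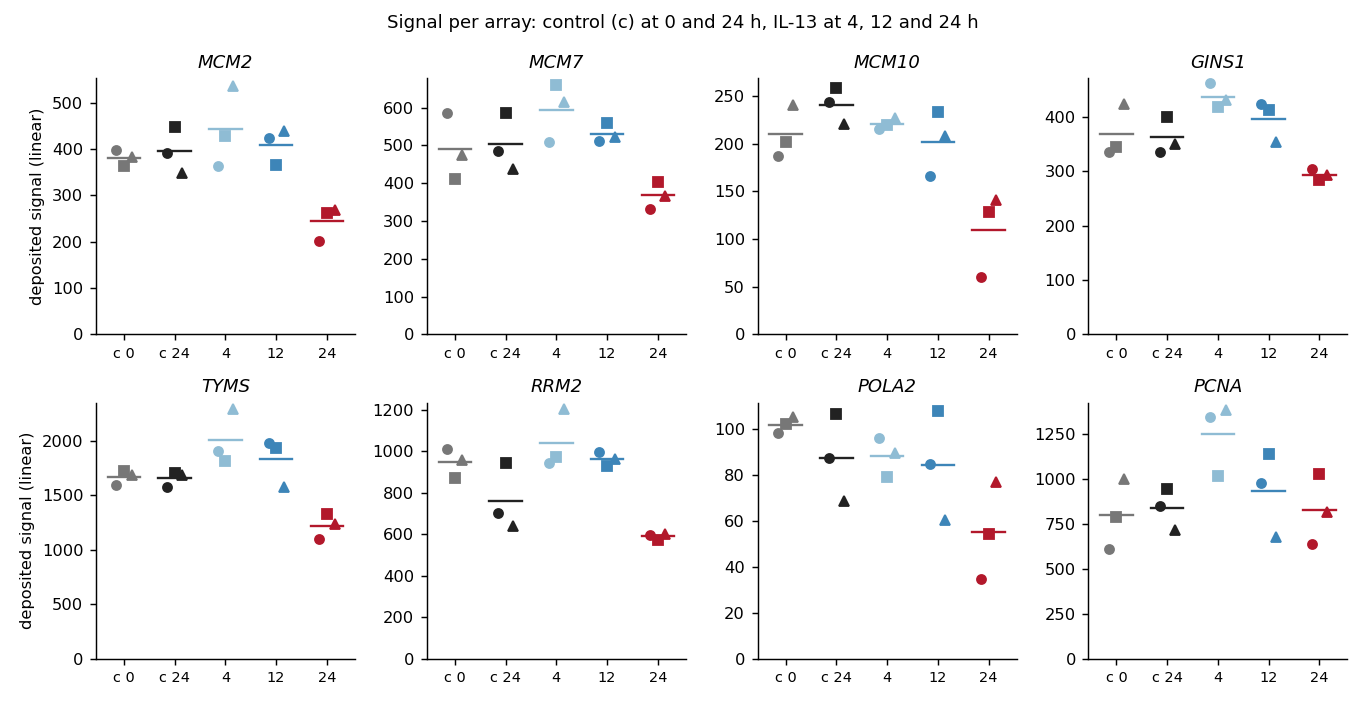
Deposited signal of MCM2, MCM7, MCM10, GINS1, TYMS, RRM2, POLA2 and PCNA on each array (points), by group, 1 panel per gene with its own linear axis and a bar at the mean of 3 arrays. For MCM2, MCM10, TYMS and RRM2 the 3 IL-13 24 h points lie below all 3 points of each other group, while those of PCNA overlap the untreated groups.

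Among the genes that assemble origins, ORC1, ORC6, CDC6, CDT1 and the CDT1 inhibitor geminin (GMNN), none passed in the matched comparison, with differences from -0.19 for CDC6 to 0.11 for ORC1. ORC6 was read by a single probe set of a kind that can cross-hybridise. The clamp and its loader did not pass either. PCNA, the sliding clamp, had signals of 638, 1029 and 817 with IL-13 and 853, 947 and 716 without, which overlapped widely. Of the RFC subunits that load it, RFC4 (-0.21) and RFC5 (-0.25) separated without overlap but missed the threshold (adjusted p = 0.313 and 0.148, limma). RFC5 is uncertain, since its other probe sets differed by -0.29 and 0.08.

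The 5 tested polymerase and primase genes lay between -0.38 (POLA2, the B subunit of polymerase alpha) and 0, and the 3 genes of Okazaki fragment maturation and uracil repair between -0.22 (LIG1, the replicative ligase) and 0.24 (FEN1, the flap endonuclease), without a call. FEN1 is uncertain, because its second probe set differed by -0.33 where the first gave 0.24. The 3 largest differences upward belonged to CHAF1B, a subunit of the histone chaperone CAF-1 (0.40, adjusted p = 0.352), CCNE1, which encodes cyclin E1 (0.40, adjusted p = 0.0827), and RPA3, the small subunit of RPA (0.27, adjusted p = 0.16, limma). CCNE1 had signals of 147, 139 and 183 with IL-13 against 144, 112 and 109.8 without; the groups overlapped as deposited and separated once normalized. RPA3 passed without array b of the untreated group (difference 0.39, adjusted p = 0.048), and both CCNE1 (0.51, adjusted p = 0.0262) and RPA3 (0.57, adjusted p = 0.0117) passed with equal medians.

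**Figure D4:**
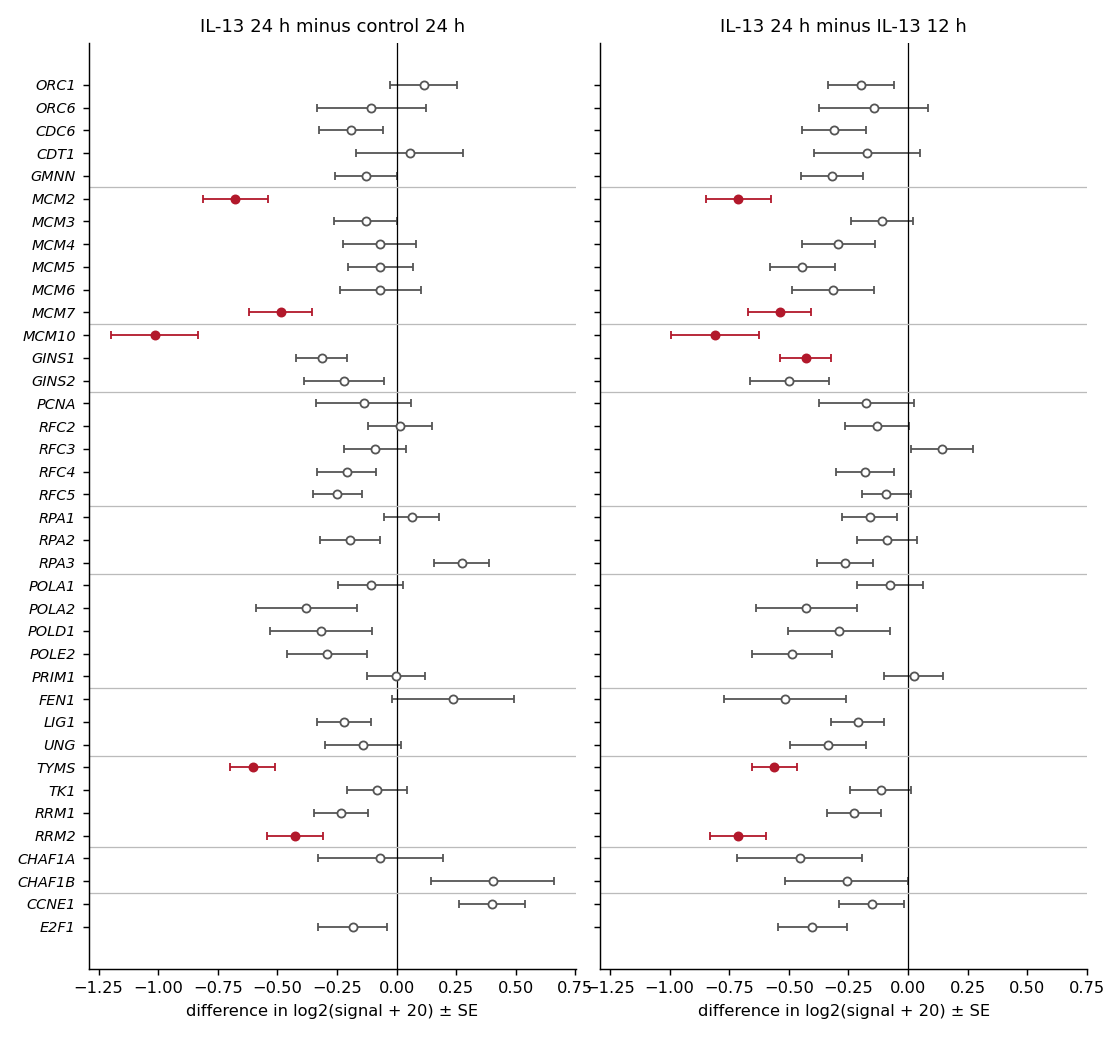
Difference in log2(signal + 20) ± SE for the 38 tested replication genes, IL-13 24 h minus untreated 24 h on the left and IL-13 24 h minus IL-13 12 h on the right, with filled points past an adjusted p of 0.05 (limma). In the left panel 30 genes lie below 0 and 5 are filled, in the right panel 36 and 6; both panels share the IL-13 24 h arrays.

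Untreated cells at 24 h were set against 0 h to show what time in culture did without IL-13. No replication gene was called there (limma; 1.73% of all genes were called higher and 1.89% lower), with 1 gene higher and 5 lower at an unadjusted p under 0.05, where 9.24% and 10.1% of all genes were. The median of the 38 genes was -0.05, against -0.0030 for all genes. CHAF1B had signals of 68.1, 81 and 20.1 at 24 h and 88.5, 67.1 and 102 at 0 h, the largest difference at -0.71 ± 0.26 (adjusted p = 0.131). Array c of the 24 h group was the low one, and without array b the gene passed (-0.99, adjusted p = 0.0424). CHAF1A, its partner in CAF-1, differed by -0.61 and CDT1, which loads the helicase, by -0.59 (adjusted p = 0.21 and 0.153, limma). CHAF1A is uncertain, since its other probe sets differed by -0.69 and 0.05. CDT1 had 94.4, 93.1 and 78.9 at 24 h, all below the 109, 115 and 171 at 0 h. POLD1, the catalytic subunit of polymerase delta, lay highest at 0.46, followed by PCNA (0.19) and MCM10 (0.18), none past the threshold. With equal medians, 37 of the 38 genes lay below 0 in place of 26, and RPA3 and RRM2 were called lower. Of all tested genes, that scaling called 1029 lower and 48 higher. The median difference was then -0.18 over all tested genes and -0.29 over the 38.

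With IL-13 for 4 h and 0 h as the baseline, no replication gene passed the threshold (limma; 0.349% of all genes were called higher and 0.872% lower). At an unadjusted p under 0.05, 7 of the 38 were higher and none was lower, where 4.29% and 6.36% of all genes were. They were GMNN, MCM4, MCM7, GINS1, PCNA, RPA3 and POLD1. The median of the 38 genes was 0.12, against 0.0038 for all genes, and 29 lay above 0 (25 with equal medians). PCNA had the largest difference, with signals of 1347, 1019 and 1387 at 4 h and 612, 790.5 and 1002 at 0 h. It differed by 0.64 ± 0.20 (adjusted p = 0.167), and array a at 0 h was the lowest of the 6. POLD1 (0.47) and MCM4 (0.37) followed, and POLA2 (-0.18), POLE2 (-0.13) and RFC3 (-0.13) lay lowest. MCM4 is uncertain, since its 3 other probe sets differed by -0.0027 to 0.41. The 4 h, 12 h and untreated 24 h groups are all set against the same 3 arrays at 0 h, so low or high values there enter each of these comparisons. On the probe set used for each gene, all 6 MCM subunits lay above 0 at 4 h under all 4 scalings. The differences were 0.16 to 0.37 with quantile normalization, and none passed.

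After 12 h of IL-13, against 0 h, no replication gene was called (limma; 1.55% of all genes were called higher and 2.59% lower). At an unadjusted p under 0.05, 2 were higher and none was lower, where 7.52% and 9.40% of all genes were, and the median was 0.05. The largest differences upward were those of POLD1 (0.43), FEN1 (0.32) and RPA3 (0.30), and downward those of CDT1 (-0.36), POLA2 (-0.29) and RFC3 (-0.25). FEN1 was highest on array a, with 670.4, 324 and 335 at 12 h against 488, 280.2 and 278 at 0 h. From 4 h to 12 h of IL-13 no gene of the array was called (limma, 0 of 6884), and of the replication genes none was higher and 2 were lower at an unadjusted p under 0.05, where 4.79% and 5.33% of all genes were. The median of the 38 was -0.11, and PCNA (-0.42), CDT1 (-0.30) and LIG1 (-0.28) lay lowest, FEN1 (0.39), POLE2 (0.19) and CCNE1 (0.16) highest.

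Between 12 h and 24 h of IL-13, 6 of the 38 genes fell and none rose. That was 15.8%, against 2.06% of all genes called lower and 4.14% higher. No untreated 12 h group existed, so IL-13 and the added time in culture cannot be told apart here. MCM2, MCM7, MCM10, GINS1, TYMS and RRM2 were called. The median of the 38 was -0.28, against -0.0056 for all genes, and 36 lay below 0 under all 4 scalings. For 16 genes every 24 h array was below every 12 h array, a separation that 11.7% of all genes showed. RRM2 went from 997, 927 and 963 at 12 h to 595, 572 and 602 at 24 h (-0.71 ± 0.12, adjusted p = 0.00144, limma). MCM2 went from 423, 366 and 439 to 203, 263 and 269 (-0.71 ± 0.14, adjusted p = 0.00435). Both passed under 17 of 17 alternatives.

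TYMS had 1977, 1930.5 and 1578 at 12 h before its 24 h values given above, a difference of -0.56 ± 0.09 (adjusted p = 0.00168, limma). MCM10 had 166, 233 and 208 at 12 h and differed by -0.81 ± 0.18 (adjusted p = 0.0136). For both genes the 24 h arrays lay under all 12 h arrays, and the TYMS call was lost when its dim probe set was averaged in (adjusted p = 0.455). MCM7 differed by -0.54 ± 0.13 (adjusted p = 0.0216, limma) and passed under 11 of 17 alternatives. It was lost with equal medians and without array a, b or c at 12 h or array a or c at 24 h (adjusted p of up to 0.1). GINS1 went from 424, 413 and 354 to 304, 283 and 293, a difference of -0.43 ± 0.11 (adjusted p = 0.0225, limma). It also passed under 11 of 17. GINS1 was lost with equal medians and without array a or b at 12 h or any 1 of the 24 h arrays (adjusted p of up to 0.159, limma). MCM10 passed under 13. It was lost with only the compared groups and without array b or c at 12 h or array a at 24 h (adjusted p of up to 0.053, limma). All 6 MCM subunits, all 5 listed origin genes, all 3 RPA subunits and all 4 nucleotide genes lay below 0 in this comparison. This held under all 4 scalings. RFC3 (0.14) and PRIM1, the catalytic primase subunit (0.02), were the 2 genes above 0. RFC3 is uncertain, since its other probe set differed by -0.0049. When every probe set was tested, second probe sets of FEN1 (-0.82, adjusted p = 0.000523, limma) and RRM1 (-0.50, adjusted p = 0.0227) were called lower too, while the brighter ones were not. Of the called genes with a second probe set, that of RRM2 passed (-0.55, adjusted p = 0.0192, limma). The second set of MCM7 missed the threshold (-0.43, adjusted p = 0.0855, limma), and the dim one of TYMS differed by 0.09.

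Against untreated cells at 0 h, the IL-13 24 h group had 5 replication genes lower and none higher (13.2%, where 3.47% of all genes were called lower and 3.40% higher). They were MCM2 (-0.60, adjusted p = 0.0131), MCM10 (-0.83, 0.0101), POLA2 (-0.71, 0.0495), TYMS (-0.48, 0.0045) and RRM2 (-0.65, 0.00253, all limma). The median was -0.23 against 0.0026 for all genes, 33 of 38 lay below 0 under all 4 scalings, and 14 separated without overlap (13.0% of all genes). This comparison shares its 24 h arrays with those against untreated 24 h cells and against 12 h of IL-13, so the 3 sets of values are not independent. Cytokine and time in culture cannot be told apart in IL-13 24 h against 0 h.

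POLA2 was called here alone. Its signals were dim, 34.6, 54.5 and 77.2 on the IL-13 24 h arrays against 98.3, 102 and 106 at 0 h, and array a was the lowest. The untreated 24 h arrays gave 87.5, 107 and 68.8, overlapping the treated ones of that time. The call was lost under 8 of 16 alternatives, among them leaving out any 1 of the 0 h arrays or array a or b of the IL-13 24 h group, with adjusted p-values of up to 0.187. MCM2 was lost without array a of the IL-13 24 h group (adjusted p = 0.065) and MCM10 without array c of the 0 h group (adjusted p = 0.0539). TYMS was lost with equal medians or with its dim probe set averaged in (adjusted p of up to 0.337), and RRM2 passed under 17 of 17. When every probe set was tested, POLA2 missed the threshold (adjusted p = 0.0515), and dimmer second probe sets of 3 genes not called on their brightest one were lower. These were CDC6 (-0.48, adjusted p = 0.0333), MCM7 (-0.58, adjusted p = 0.0194) and FEN1 (-0.54, adjusted p = 0.00931), where the brightest gave -0.23, -0.39 and -0.20. The CDC6 set had signals of 113, 135 and 147 at 24 h of IL-13 against 207, 171 and 209 at 0 h. Of the genes outside the calls, CHAF1A lay lowest (-0.68, adjusted p = 0.139, with -0.53 and -0.14 on its other probe sets) and POLD1 (0.14), CCNE1 (0.11) and PRIM1 (0.07) highest.

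Beyond the 42 genes, 65 others of replication and G1/S control were listed, of which 51 could be tested; they include further ORC, MCM, GINS and polymerase subunits, cyclins and E2F factors. In the comparison matched at 24 h, 4 of the 51 passed (7.84%), a share near that of all genes, of which 482 of 6884 passed, and the median of the 51 was -0.009. ORC4, an origin recognition subunit, rose (0.69, adjusted p = 0.00155), while MCM9, an MCM-like helicase of repair (-0.61, 0.0338), TOP2A, the topoisomerase that untangles sister chromatids (-0.39, 0.0301), and the repressor E2F4 (-0.59, 0.0223, limma) fell.

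Against 12 h of IL-13, ORC5 (0.43) and the deubiquitinase USP1 (0.43) rose and cyclin A2 (CCNA2, -0.43) and the CDT1 and p27 ligase subunit SKP2 (-0.59) fell, with adjusted p-values of 0.014 to 0.0483 (limma) and a median of -0.04 over the 51. These 4 of 51 stand beside 427 of all 6884 genes. Against 0 h, the maintenance methyltransferase DNMT1 (-0.59, adjusted p = 0.037) and CCNA2 (-0.40, 0.0476) fell, 2 of 51 beside 473 of all 6884 genes. None of the 51 was called in the other 4 comparisons (limma), with 8, 7, 3 and 3 at an unadjusted p under 0.05 for untreated 24 h, IL-13 4 h and IL-13 12 h against 0 h and for 12 h against 4 h of IL-13. Over all 6884 genes these counts were 1329, 733, 1165 and 697. The count in the matched comparison was 7 with equal medians, 1 without array a of the untreated group, and 2 without its array c or without array a or c of the IL-13 group. Against 12 h it was 0 to 2 without array a, b or c at 12 h or array b or c at 24 h, and against 0 h it was 0 or 1 without any 1 of the 6 arrays. Over all alternatives it ran from 1 to 7 in the matched comparison, 0 to 6 against 12 h, 0 to 4 against 0 h and 0 to 5 in untreated 24 h against 0 h (5 with equal medians, 1 without array b of the untreated 24 h group).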

How the data were processed

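Total RNA was hybridised to 15 single-colour hgu133a arrays. The deposited values are probe set signal intensity on a linear scale, which the authors made by a method not given in the sources used here; array means, with the top and bottom 2% of values trimmed, run from 150.04 to 150.06. Here negative values were set to 0, arrays were quantile-normalized, and log2(signal + 20) was taken. Of 22283 probe sets, 68 were controls, and 19065 of the rest had 1 symbol, 1043 several and 2107 none. The brightest probe set stood for a gene. Probe sets named _x_at, a kind that can cross-hybridise, were used only where the gene had no other. Genes were tested above the median probe set (log2 value 6.33) with limma 3.58.1 in R 4.3.3, fitting 5 group means to the 15 arrays (residual degrees of freedom: 10), two-sided, adjusted by Benjamini-Hochberg over 6884 genes, threshold 0.05, in 7 comparisons. The number of arrays limits the precision. "Every probe set" means the same fit over 9850 probe sets. "Equal medians" means scaling each array to the same median in place of quantile normalization. Printed signals are as deposited; overlap between groups was judged on normalized values.

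The text names every replication gene past the threshold and, in each comparison, the 3 largest differences in each direction. The genes, lists, markers and motifs were chosen with earlier results of these data known. Script steps were tested on simulated data. Alternatives were other scalings, pseudocounts of 1 and 60, other filters, and all or averaged probe sets. Further ones were array weights, only the compared groups, and the replicate letter as a block. Each array of the compared groups was also left out in turn.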

Additional observations from a re-analysis of the deposited data

How the results depend on the processing

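The 7 counts of replication genes called and the 7 differences of their mean were recomputed under 217 alternatives. Of these, 201 left the count within 1.5 times or the mean within 1 SD. That SD, pooled within groups from the mean per array, was 0.105. The counts for IL-13 4 h and 12 h against 0 h and for 12 h against 4 h were 0 throughout. Of the 16 values that moved, 8 were of the count in IL-13 24 h against untreated 24 h. In IL-13 24 h against untreated 24 h, 3 genes were called in place of 5 under every other scaling. These were the scaling as deposited, equal medians over all probe sets and equal medians over tested genes. No brightness filter and only the compared groups also gave 3. Leaving out an array gave 3 to 5 (3 without array a of the untreated or array a or c of the IL-13 group). With equal medians over all probe sets, MCM10 was lower but CCNE1 and RPA3 were higher. Wherever else 3 were called, they were MCM2, MCM10 and TYMS, all lower. Equal medians over all probe sets moved the mean difference from -0.16 to 0.0196 in that comparison, and from -0.11 to -0.30 in untreated 24 h against 0 h, where they gave 2 calls in place of 0 and leaving out an array gave 0 to 1. Calls over all genes moved with that scaling from 271 higher and 211 lower to 1180 and 56 in the matched comparison, and from 119 and 130 to 48 and 1029 in the untreated one. Leaving out an array gave 3 to 5 calls in place of 5 against 0 h (3 without array c at 0 h or array a of IL-13 24 h) and 3 to 5 in place of 6 against IL-13 12 h (3 without array b at 12 h or array a at 24 h). The cause of these moves was not tested.

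Arrays with the same letter did not deviate together (r of -0.22 to 0.11 over 30 pairs, 3 of 15 arrays closest to their own letter). With 3 arrays a group this cannot show whether the letters stand for shared cultures or batches, and the labels do not say. With the replicate letter as a block, 4, 4 and 6 replication genes were called in IL-13 24 h against untreated 24 h, 0 h and IL-13 12 h. Brightness limits what can be said of the dim genes.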

Other observations

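CDC45, a part of the active helicase, gave signals of 42.3, 58.4 and 89.9 at 0 h, 32.5, 51.5 and 23.3 in untreated cells at 24 h, 75.2, 62.3 and 123 with IL-13 for 4 h, 38.3, 47.6 and 52.4 for 12 h and 49.6, 6.0 and 12 for 24 h. Its lowest signals, 6.0 and 12.0, were those of arrays b and c at 24 h of IL-13, while array a of that group lay among the untreated values. CCNE2, which encodes cyclin E2, gave 62.3, 62.8 and 63.6 in untreated cells at 24 h and 34.6, 41.1 and 50.3 at 24 h of IL-13, with 56.1, 31.9 and 34.6 at 0 h. The other CCNE2 probe set, dimmer still, had the opposite sign in both comparisons of the untreated 24 h group, at 0.10 for IL-13 24 h minus untreated 24 h (-0.25 on the set above) and -0.06 for untreated 24 h minus 0 h (0.29 above). PRIM2, the large primase subunit, stayed between 33.8 and 72.2 over the 15 arrays on the probe set that names it alone. Both of the probe sets annotated to PRIM2 together with PRIM2BP were left out; the brighter lay between 84.7 and 135 and the dimmer between 2.5 and 8.9. These 3 genes were below the brightness limit of the test and have no p-value.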
